A study of Mus musculus with 6 samples.

Results

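The genes described here are 10 members of the NF-kappa-B system of transcription control: the subunit genes Rela, Relb, Nfkb1 and Nfkb2, the classical inhibitor genes Nfkbia, Nfkbib and Nfkbie, the atypical nuclear inhibitor-like genes Nfkbiz and Bcl3, and Tnfaip3, which encodes the ubiquitin-editing enzyme A20. They were chosen by name, with earlier results of these data known, and all 10 had a row among the 45706 genes of the table. The data are poly(A)-enriched RNA sequencing of mouse liver. There were 3 wild-type libraries, WT 1 to WT 3, and 3 Entpd8 knockout libraries, KO 1 to KO 3. NTPDase8, the product of Entpd8, is an ectonucleotidase of the liver, and the series asks about its part in liver ischemia. The labels name no treatment, time, age, sex or strain for either group, do not describe the knockout allele, and are silent on whether the livers had been made ischemic and whether each library is a different animal. The p-values below therefore measure the spread between these libraries, which may be technical.

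NF-kappa-B is a family of dimeric transcription factors. In resting cells the dimers are held in the cytoplasm by inhibitors of the I-kappa-B family. Ligands such as tumor necrosis factor and interleukin-1 switch on the I-kappa-B kinase, which marks the inhibitor for destruction and lets the dimer enter the nucleus. Several inhibitors, A20 and some subunits are themselves transcribed from NF-kappa-B target promoters, which gives the system negative feedback loops. In liver, hepatocytes, Kupffer cells and endothelial cells all use the system, and it acts both in inflammation and in protecting hepatocytes from death. Control of RELA itself occurs largely at the level of the protein's location and modification, which RNA counts do not show.

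The promoter sequences of 5 members are shown because they carry, or in the case of Rela lack, the kappa-B consensus that NF-kappa-B dimers recognise. RefSeq promoter windows of 300 bases in GRCm38.p6, from 250 bases before to 50 after each start, were matched for 7 of the 10 members, and Nfkbiz, Relb and Nfkb1 were not matched. The 10-base kappa-B consensus was searched on both strands. It occurred in at least 1 window of 5 of the 7 members, Nfkbia, Tnfaip3, Nfkbie, Bcl3 and Nfkb2, and in no window of Rela or Nfkbib. Of all 32851 RefSeq promoter windows of the same length, 8.46% held it, and of all 27025 genes with a window, 9.55% had at least 1 window that did. Each line below gives the bases before the RefSeq start, 5′ to 3′ on the gene's strand, with matches in capitals. The Bcl3 line runs on to the end of its match, which begins 3 bases into the transcript.
Nfkbia: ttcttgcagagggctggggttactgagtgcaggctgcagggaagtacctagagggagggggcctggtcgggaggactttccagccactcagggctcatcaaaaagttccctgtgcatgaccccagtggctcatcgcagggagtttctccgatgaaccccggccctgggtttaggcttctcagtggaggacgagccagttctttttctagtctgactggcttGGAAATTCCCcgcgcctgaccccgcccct
Tnfaip3: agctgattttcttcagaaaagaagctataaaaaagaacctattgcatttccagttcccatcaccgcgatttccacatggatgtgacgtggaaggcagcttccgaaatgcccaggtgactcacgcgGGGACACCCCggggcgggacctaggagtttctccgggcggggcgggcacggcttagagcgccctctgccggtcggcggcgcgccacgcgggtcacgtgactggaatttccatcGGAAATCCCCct
Nfkbie: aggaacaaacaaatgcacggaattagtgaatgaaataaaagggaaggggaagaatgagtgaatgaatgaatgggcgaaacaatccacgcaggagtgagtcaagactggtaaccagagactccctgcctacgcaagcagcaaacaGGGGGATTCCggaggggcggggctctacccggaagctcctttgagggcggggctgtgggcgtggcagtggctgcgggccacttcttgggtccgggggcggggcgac
Bcl3: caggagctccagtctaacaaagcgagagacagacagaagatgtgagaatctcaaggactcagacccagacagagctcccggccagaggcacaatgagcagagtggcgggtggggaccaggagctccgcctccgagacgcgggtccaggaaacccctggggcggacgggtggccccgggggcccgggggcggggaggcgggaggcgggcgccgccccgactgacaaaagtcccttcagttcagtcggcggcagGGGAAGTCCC
Rela: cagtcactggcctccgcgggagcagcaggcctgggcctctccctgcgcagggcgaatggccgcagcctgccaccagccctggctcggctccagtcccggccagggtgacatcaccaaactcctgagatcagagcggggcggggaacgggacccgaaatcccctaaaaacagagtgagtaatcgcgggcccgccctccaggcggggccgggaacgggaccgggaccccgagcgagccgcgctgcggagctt
The stretches lie at chr12:55492648-55492897 on the minus strand (Nfkbia), chr10:19015411-19015660 on the minus strand (Tnfaip3), chr17:45555450-45555699 on the plus strand (Nfkbie), chr7:19822744-19823005 on the minus strand (Bcl3) and chr19:5637291-5637540 on the plus strand (Rela). The match in Nfkbia begins 29 bases before the RefSeq start, and the pair in Tnfaip3 begin 125 and 12 bases before theirs. The GENCODE annotation, used for the gene positions below, places the starts of Tnfaip3, Rela and Bcl3 further upstream. Their stretches therefore lie partly inside those genes. The GENCODE gene of Tnfaip3 reaches chr10:19015657, and both of its matches lie inside it. The Nfkb2 windows with a match also lie inside its GENCODE gene. A match is a description of the letters and not a measured binding site. Of the genes with a match, Nfkbia and Tnfaip3 were called higher in knockout livers, and Nfkbie, Bcl3 and Nfkb2 did not pass the test. Rela and Nfkbib, without a match, did not pass either. Whether a match goes with a change was not tested.

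Entpd8, the targeted gene, checked the labels. Its expected counts, which are estimates of the reads per gene, were 1416, 876 and 2034 in wild type against 15, 29 and 52 in knockout. Total counts per library ran from 32768774 to 46473531. The liver label was checked against 8 hepatocyte markers such as albumin. Of these, 1 was called lower, against 10.6% of all genes tested. Their summed level ran from 78980 to 110500 CPM (a gene's counts relative to a library total that is scaled by TMM for composition).

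Across the members, Tnfaip3, Nfkbiz and Nfkbia rose most in knockout livers, and the subunits Relb and Nfkb1 rose by less. Rela, Nfkb2, Nfkbib, Bcl3 and Nfkbie did not pass the test. Of the 10 members, all of which passed the low-count filter, 5 were higher in knockout livers and 0 were lower at an adjusted p under 0.05 in edgeR's quasi-likelihood test. Among all 14069 genes tested, 9.8% were called higher and 10.6% lower. The median log2 fold change was 0.51 over the members and -0.02 over all genes tested. For 6 members the groups did not overlap, and in each of these the knockout libraries all lay above the wild-type ones. Over all genes tested the groups did not overlap for 40.7%, and the knockout libraries were the higher ones for 18.7%. The number of members called was 3 without WT 1, WT 3, KO 1 or KO 3, namely Nfkbia, Nfkbiz and Tnfaip3. It was 4 without KO 2 and 7 without WT 2, 6 of them higher and 1, Nfkbie, lower. Calls over all genes moved too. They numbered 2871 of 14069 in the full fit, 603 of 14374 without KO 1 and 3080 of 14475 without WT 2. Without WT 1 they were 1653 of 14367, and without WT 3 they were 2030 of 14387. Without KO 2 they were 1594 of 14367, and without KO 3 they were 1744 of 14294. In bulk tissue, fewer cells of a type and less RNA per cell cannot be told apart.

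**Figure D1:**
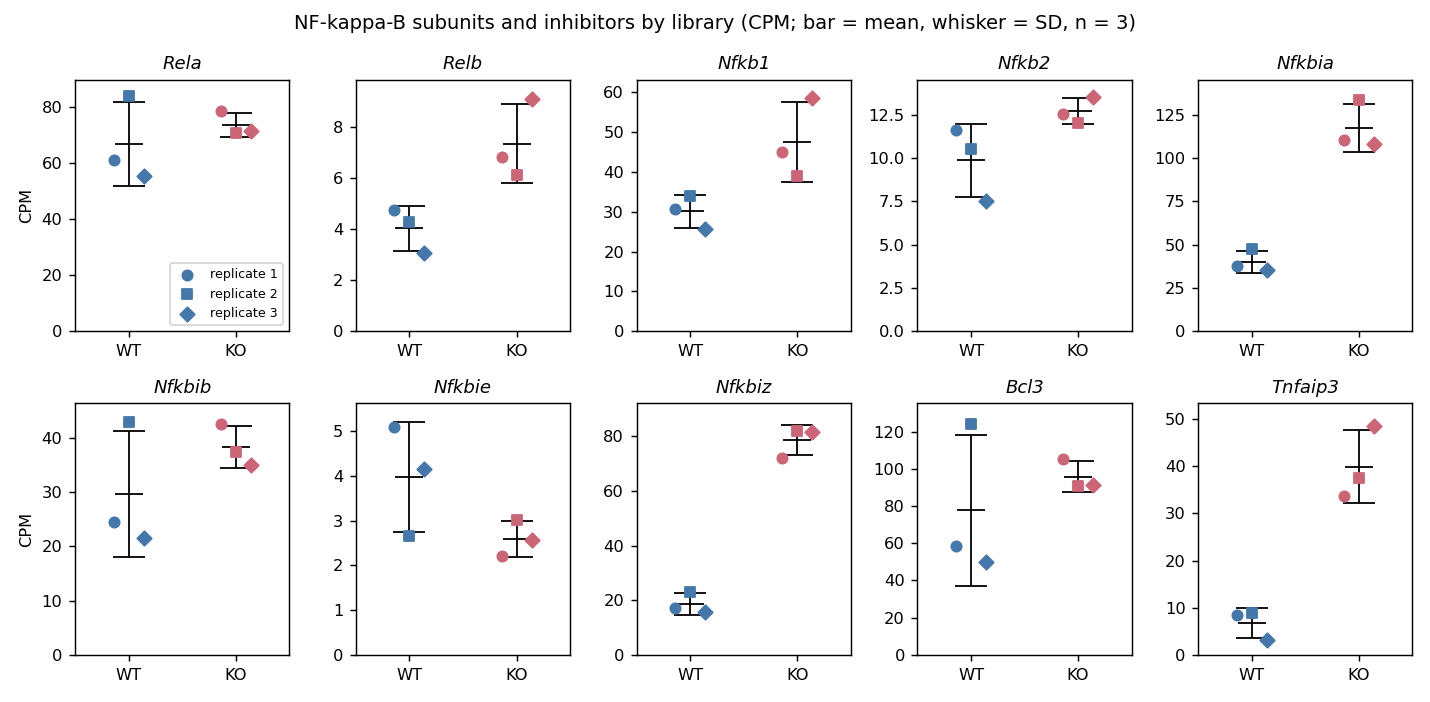
Levels in CPM (vertical axes, each starting at 0) of the 10 genes in the 3 wild-type (WT) and 3 knockout (KO) libraries, with markers for the replicate numbers and the mean and SD of each group. Tnfaip3, Nfkbiz and Nfkbia separate the groups by a wide gap, and WT 2 stands above the other wild-type libraries for Rela, Nfkbib and Bcl3.

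Tnfaip3, the gene of A20, had the largest fold change of the members. A20 edits ubiquitin chains on signalling proteins downstream of the tumor necrosis factor and Toll-like receptors and so limits activation of the kinase. The gene, ENSMUSG00000019850, lies at chr10:19000910-19015657 on the minus strand in GRCm38, the build of all gene positions given here. Its levels were 8.38, 8.92 and 3.08 CPM in WT 1, WT 2 and WT 3 and 33.6, 37.6 and 48.5 CPM in KO 1, KO 2 and KO 3. The groups did not overlap, and the lowest knockout library was far above the highest wild-type one. The difference was 2.55 ± 0.38 on the log2 scale (SE), a 5.87-fold rise (adjusted p = 0.00736, edgeR). WT 3 was the lowest library by a wide margin, and without it the log2 fold change was 2.20.

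Nfkbiz encodes I-kappa-B zeta, a nuclear protein of the inhibitor family that works with the p50 subunit on a secondary set of target genes, among them Il6 in macrophages. The gene, ENSMUSG00000035356, lies at chr16:55811375-55838899 on the minus strand. Nfkbiz stood at 17.1, 23.1 and 15.7 CPM in the wild-type libraries and at 72.1, 82.0 and 81.5 CPM in the knockout libraries. Knockout values were close together and all well above the wild-type values. This was a log2 fold change of 2.08 ± 0.16 (SE), or 4.22-fold, with adjusted p = 8.31e-04 in edgeR.

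Nfkbia encodes I-kappa-B alpha, the inhibitor that is degraded and resynthesised fastest in the classical feedback loop. The gene, ENSMUSG00000021025, lies at chr12:55489410-55492647 on the minus strand, and its promoter is the first of those shown above. Its levels were 37.6, 47.4 and 35.1 CPM in the wild-type libraries, against 111, 133 and 108 CPM in the knockout libraries. The groups were again separate, and Nfkbia rose by 1.55 ± 0.15 on the log2 scale (SE), or 2.93-fold (adjusted p = 0.00187, edgeR). The calls of Tnfaip3, Nfkbiz and Nfkbia held in all 18 alternative fits, with adjusted p up to 0.0343, 0.00684 and 0.0108.

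Neither of the other classical inhibitors passed the test. Nfkbib, the gene of I-kappa-B beta (ENSMUSG00000030595, chr7:28758251-28767512 on the minus strand), was at 24.5, 42.9 and 21.6 CPM in WT 1, WT 2 and WT 3 and at 42.6, 37.3 and 35.0 CPM in KO 1, KO 2 and KO 3. WT 2 was just above the highest knockout library, so the groups overlapped. For Nfkbib the log2 fold change was 0.37, with a 95% interval from -0.21 to 0.95 (adjusted p = 0.329, edgeR). Without WT 2 it was 0.73 and passed (adjusted p = 0.0132, edgeR). Nfkbie, the gene of I-kappa-B epsilon (ENSMUSG00000023947, chr17:45555703-45563169 on the plus strand), was the only member with a negative estimate and the least abundant in CPM. Its levels were 5.10, 2.67 and 4.17 CPM in the wild-type libraries and 2.21, 3.02 and 2.57 CPM in the knockout libraries. WT 2 lay among the knockout libraries. Its fold change was -0.61 on the log2 scale, with an interval from -1.25 to 0.03 (adjusted p = 0.154, edgeR), and without WT 2 it was -0.83 and passed (adjusted p = 0.0408, edgeR). Nfkbie counts ran from 87 to 185 per library.

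Bcl3 encodes a nuclear inhibitor-family protein that binds p50 and p52 dimers and can switch target genes on or off. The gene, ENSMUSG00000053175, lies at chr7:19808462-19822770 on the minus strand. Its levels were 58.6, 124 and 50.1 CPM in the wild-type libraries and 105, 91.0 and 91.4 CPM in the knockout libraries. WT 2 was the highest of all 6 libraries, and the other wild-type libraries lay below every knockout library. Bcl3 had a log2 fold change of 0.30, with an interval from -0.46 to 1.07 (adjusted p = 0.546, edgeR). Without WT 2 it was 0.82 (adjusted p = 0.00918, edgeR). WT 2 was also the highest of the 6 libraries for Rela and Nfkbib. Over the 6 libraries, the Bcl3 and Nfkbib profiles were the closest of all member pairs, with a root mean square distance of 0.105 between centred log2 CPM values. WT 3, by contrast, was the lowest of the 6 libraries for 9 of the 10 members, the exception being Nfkbie. How often WT 3 was the lowest, or WT 2 the highest, among all genes was not counted. These positions are therefore not read as a trait of the members.

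Rela encodes the p65 subunit, which carries the activation domain of the most common NF-kappa-B dimer. Its gene, ENSMUSG00000024927, lies at chr19:5637483-5648130 on the plus strand. Its levels were 61.2, 83.9 and 55.3 CPM in the wild-type libraries and 78.6, 70.7 and 71.3 CPM in the knockout libraries. The knockout libraries lay inside the wild-type range. Its estimated log2 fold change was 0.14, with an interval from -0.24 to 0.51 (adjusted p = 0.583, edgeR), so a rise of more than 0.51 on this scale lies outside the interval.

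Nfkb1 encodes p105, the precursor of p50 and itself an inhibitor through its ankyrin repeats. Nfkb1 (ENSMUSG00000028163, chr3:135584655-135691547 on the minus strand) was at 30.7, 34.0 and 25.7 CPM in wild-type livers. Its knockout levels were 45.02, 39.0 and 58.6 CPM. The groups did not overlap, but the gap between WT 2 and KO 2 was narrow. Nfkb1 rose by 0.66 ± 0.17 on the log2 scale (SE), or 1.58-fold (adjusted p = 0.0346, edgeR). Its call ended when WT 1, WT 3, KO 1 or KO 3 was left out, with adjusted p reaching 0.0976, with library totals alone (adjusted p = 0.0557) and with a fold minimum of 1.5 (adjusted p = 0.699).

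Relb encodes the subunit that pairs with p52 in the alternative pathway, which is driven by receptors such as the lymphotoxin beta receptor. Relb (ENSMUSG00000002983, chr7:19606217-19629438 on the minus strand) was at 4.77, 4.28 and 3.05 CPM in the wild-type libraries and at 6.85, 6.13 and 9.09 CPM in the knockout libraries, with no overlap. The log2 fold change was 0.87 ± 0.23 (SE), or 1.82-fold (adjusted p = 0.0353, edgeR). The call of Relb was lost without any 1 of the 6 libraries (adjusted p from 0.0505 to 0.101) and with a fold minimum of 1.5 (adjusted p = 0.349). Nfkb2, the gene of the p52 precursor p100 (ENSMUSG00000025225, chr19:46304320-46312385 on the plus strand), was at 11.6, 10.5 and 7.52 CPM in the wild-type libraries and at 12.6, 12.0 and 13.5 CPM in the knockout libraries. The groups of Nfkb2 did not overlap, by a small margin, and its log2 fold change of 0.36 did not pass (interval from -0.04 to 0.77, adjusted p = 0.179, edgeR). On the other strand, Nfkb2 exons overlap those of the long noncoding RNA gene AC114539.1 over 531 bases and those of Psd over 299 bases, and whether the counts kept strands apart is not stated. AC114539.1 was not analysed here, so its part in the Nfkb2 counts is unknown. Psd had between 7 and 15 counts per library, against 271 to 644 for Nfkb2.

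**Figure D2:**
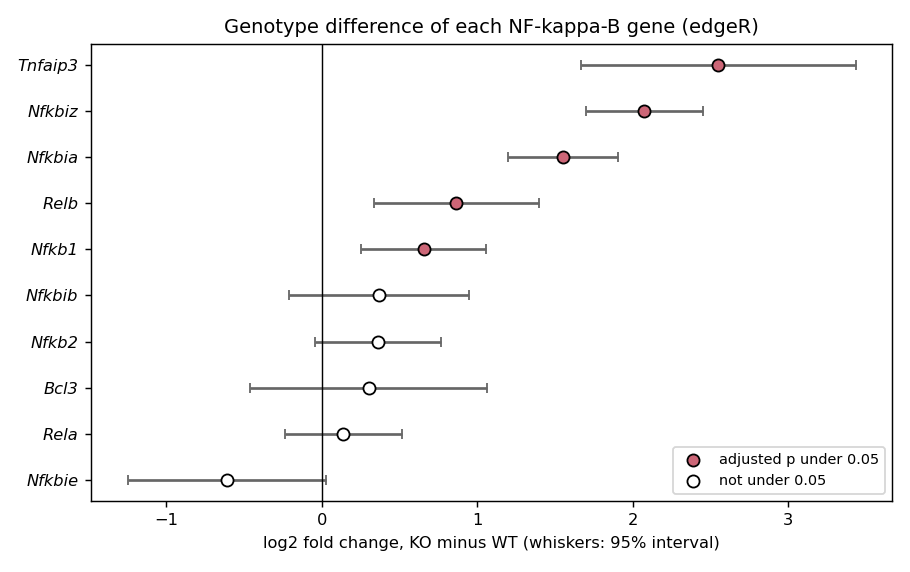
Log2 fold change of each gene, knockout minus wild type (horizontal axis), with 95% intervals from the edgeR fit. Filled points passed at an adjusted p under 0.05, and the intervals of Tnfaip3, Nfkbiz and Nfkbia lie above 1 throughout.

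Compared between genes on a length-scaled level (counts divided by exon length, scaled to an equal total in every library), Bcl3, Nfkbia and Rela were the most abundant members in wild-type livers. Bcl3 stood at 79.3 ± 35.9, Nfkbia at 48.6 ± 4.56 and Rela at 47.0 ± 7.29 length-scaled units (SD, n = 3). The wild-type ranges of Nfkbia and Rela overlapped, so their order was not resolved. Next came Nfkbib (26.5), Nfkb1 (14.02) and Nfkbiz (8.61), each with a range separate from the next. At the bottom, Nfkb2 (4.49), Relb (3.50), Nfkbie (3.18) and Tnfaip3 (2.79) each overlapped its neighbour in the order. In knockout livers the order differed at both ends. Nfkbia was the most abundant member at 130.1 ± 8.29 length-scaled units (SD, n = 3), above Bcl3 at 91.0 ± 9.40 with no overlap. Nfkbiz, at 33.4, stood level with Nfkbib at 31.6, and their ranges overlapped. Tnfaip3 moved from last place to 15.4 length-scaled units, where its range overlapped that of Nfkb1 (20.4), and Nfkbie was last at 1.87.

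Ratios within a library do not depend on how libraries are scaled to each other. The log2 ratio of Nfkbia to Rela counts was -0.70, -0.82 and -0.66 in WT 1, WT 2 and WT 3 and 0.49, 0.92 and 0.60 in KO 1, KO 2 and KO 3. Every wild-type library thus had fewer Nfkbia than Rela counts, and every knockout library more. The sign also depends on exon length, 1578 bases for Nfkbia and 2716 for Rela. On the length-scaled level Nfkbia was at 45.6, 53.9 and 46.5 and Rela at 43.1, 55.4 and 42.5 in WT 1 to WT 3. In KO 1 to KO 3 Nfkbia was at 122.5, 138.9 and 128.8 and Rela at 50.5, 42.8 and 49.4. The mean log2 ratio differed by 1.40, with an exact two-sided permutation p = 0.1, which is the smallest possible with groups of 3. The second ratio set the alternative subunits Relb and Nfkb2 against the classical subunits Rela and Nfkb1. Its log2 values were -2.49, -2.99 and -2.94 for wild type and -2.67, -2.59 and -2.52 for knockout, in the order of the replicate numbers. WT 1 was above all knockout libraries, and the difference of 0.21 was within the spread (exact two-sided permutation p = 0.4).

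**Figure D3:**
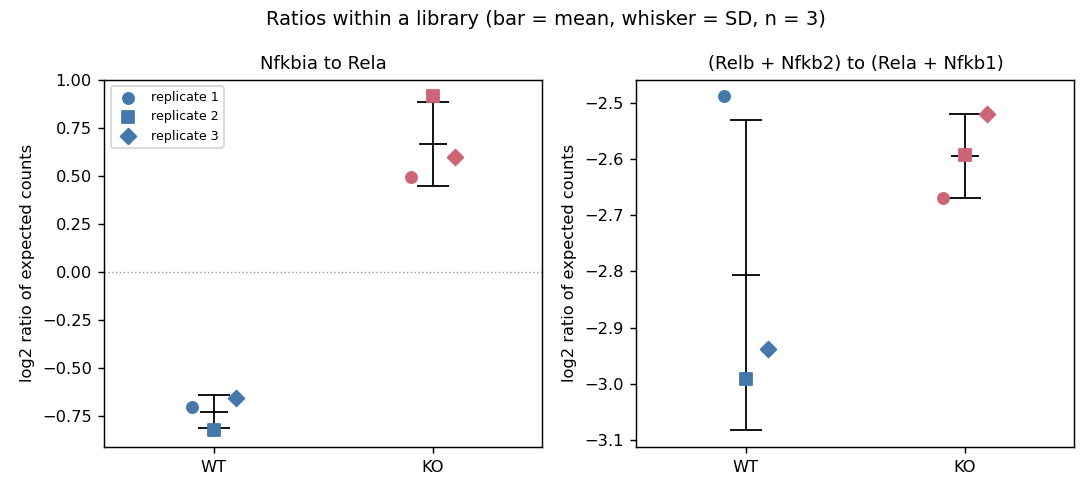
Log2 ratio of expected counts within each library (vertical axes, which do not start at 0) for Nfkbia to Rela and for Relb plus Nfkb2 to Rela plus Nfkb1, with group mean and SD. The first ratio lies below 0 in all 3 wild-type libraries and above 0 in all 3 knockout libraries, and the second overlaps between groups. Counts are not divided by exon length, on which the position of 0 depends.

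The rest of the pathway was read from lists ordered by role, which were also chosen with earlier results of these data known. Of 9 ligand genes, 5 passed the low-count filter, and 1 of these was called higher (20%, against 9.8% of all genes) and 0 lower, with a median log2 fold change of 0.94. Interleukin-1 alpha, Il1a, was at 3.28, 2.61 and 3.39 CPM in wild-type and 4.48, 7.75 and 5.87 CPM in knockout livers. Il1a rose by 0.96 ± 0.24 on the log2 scale (SE, adjusted p = 0.0294, edgeR). The Il1a call ended when any library except KO 1 was left out (adjusted p up to 0.0904, edgeR). It also ended with the replicate block (adjusted p = 0.0813) and with a fold minimum of 1.5 (adjusted p = 0.254). Il1b had a log2 fold change of 0.94 (adjusted p = 0.261, edgeR), with WT 1 among the knockout libraries, and without WT 1 it was 1.91 and passed (adjusted p = 0.0157). Tnfsf12, the gene of the cytokine TWEAK, had one of -0.65 (adjusted p = 0.0665, edgeR) and passed in 4 of 18 alternatives. Tnf, looked at after its values were seen, was at 0.358, 0.103 and 0.222 CPM in wild-type and 0.484, 1.10 and 0.694 CPM in knockout livers. The groups of Tnf were separate, with a log2 fold change of 1.73 ± 0.52 (SE, adjusted p = 0.0503, edgeR) that passed in 4 of 17 alternatives. Its counts were 13, 4 and 8 in wild-type and 19, 44 and 33 in knockout libraries. Tnf thus met the low-count filter through the knockout libraries, where it is high. Its separation and fold change are not independent of that filter. Lta, Cd40lg, Tnfsf11 and Tnfsf13b were too low to be tested.

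Among 19 receptor and adaptor genes, all tested, 3 rose (15.8%, against 9.8% of all genes) and 3 fell (15.8%, against 10.6%), with a median log2 fold change of -0.14. The TWEAK receptor Tnfrsf12a rose by 1.25 ± 0.25, the interleukin-1 receptor-associated kinase Irak2 by 0.86 ± 0.15 and the interleukin-1 co-receptor Il1rap by 0.56 ± 0.12 on the log2 scale (SE). The related kinase Irak4 fell by 0.96 ± 0.17, and Ltbr, the lymphotoxin beta receptor, fell by 0.45 ± 0.11 on the log2 scale. The third fall was that of Tlr3, named here only to complete the count. Of 21 kinase, TRAF and ubiquitin ligase genes, 2 rose (9.52%, against 9.8% of all genes) and 3 fell (14.3%, against 10.6%), with a median log2 fold change of -0.03. The kinase Map3k8 rose by 1.42 ± 0.20 and Fbxw11, a receptor of the ubiquitin ligase that recognises marked I-kappa-B, by 0.64 ± 0.14. Ikbkg, the regulatory subunit of the I-kappa-B kinase, fell by 0.49 ± 0.11, Sharpin of the linear ubiquitin ligase by 0.51 ± 0.14 and Tab2 by 0.52 ± 0.15 on the log2 scale. The catalytic subunits Chuk and Ikbkb, which were not named by rule, had log2 fold changes of 0.00 and -0.10. Of the receptor, adaptor, kinase and ligase genes named by rule, the call of Map3k8 held in all 18 alternatives, and those of the others were lost in 2 or more of them, each without KO 1.

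Among 18 other restraints of the pathway, 5 rose (27.8%, against 9.8% of all genes) and 1 fell (5.56%, against 10.6%), with a median log2 fold change of 0.17. Zc3h12a, whose product degrades inflammatory messenger RNAs, rose by 1.39 ± 0.23, and the A20-binding partners Tnip1 and Tnip2 rose by 0.75 ± 0.14 and 0.85 ± 0.21 on the log2 scale (SE). Commd1 rose by 0.45 ± 0.12, and the ubiquitin ligase Itch fell by 0.43 ± 0.11. The remaining rise was that of Nfkbid, the gene of the nuclear inhibitor I-kappa-B NS, named here to complete the count after its values were seen. Nfkbid was at 0.524, 0.256 and 0.250 CPM in wild-type and 0.891, 1.59 and 1.18 CPM in knockout livers. It rose by 1.82 ± 0.42 on the log2 scale (SE, adjusted p = 0.0222, edgeR). Its call was lost with a fold minimum of 1.5, with the replicate block and without WT 3, KO 1 or KO 2. Without KO 1, KO 2 or KO 3, and without WT 1 or WT 3, the calls of Tnip2, Commd1 and Itch ended too, while those of Zc3h12a and Tnip1 held with any 1 library left out. The deubiquitinases Cyld and Otulin, which were not named by rule, had log2 fold changes of 0.14 and -0.13 and did not pass.

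Of 30 listed target genes outside the members, 29 were tested. Of these, 15 rose (51.7%, against 9.8% of all genes) and 0 fell, with a median log2 fold change of 1.02. Because the list was chosen with earlier results of these data known, this share is not independent of them. The 15 include Il6 and Sele, named here for their low wild-type counts, 5, 5 and 2 for Il6 and 25, 13 and 5 for Sele. Both met the low-count filter through the knockout libraries, where they are high, so their calls are not independent of that filter. Ccl20 was too low to be tested. The chemokine Cxcl10 rose by 3.58 ± 0.40, the monocyte chemokine Ccl2 by 2.62 ± 0.34 and the stress gene Gadd45b by 2.43 ± 0.29 on the log2 scale (SE). The macrophage growth factor Csf1 rose by 1.41 ± 0.16 and the apoptosis inhibitor Birc3 by 1.25 ± 0.16. These 5 calls held in all 18 alternatives. Several targets did not pass, among them Sod2 at 0.05 and Lcn2 at -0.60 (adjusted p = 0.930 and 0.311, edgeR), both picked after their values were seen. Rel, the gene of the fifth NF-kappa-B subunit c-Rel, stood in this list and was added to the description afterwards. It was at 8.54, 8.66 and 6.25 CPM in wild-type and 19.0, 18.5 and 29.0 CPM in knockout livers, a 2.84-fold rise (adjusted p = 0.00550, edgeR) that passed in all 18 alternatives.

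**Figure D4:**
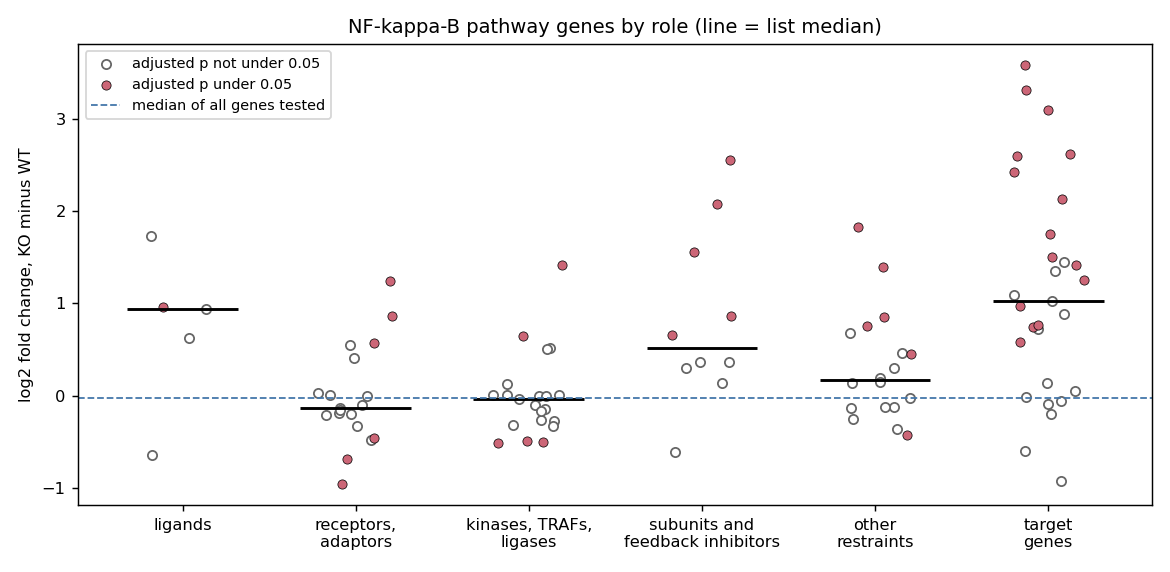
Log2 fold change, knockout minus wild type (vertical axis), of every tested gene of 6 lists ordered by role, with list medians as black lines and the median of all genes tested as a dashed line. Beside -0.02 for all genes, the medians are 0.51 for the subunits and feedback inhibitors, 0.94 for the 5 ligands tested, -0.14 for receptors, -0.03 for kinases, 0.17 for restraints and 1.02 for targets.

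The genes whose profile over the 6 libraries was most like that of Nfkbia were sought among 10501 genes with a mean log2 CPM of at least 1, by root mean square distance between centred log2 CPM values. They were S1pr3, a sphingosine-1-phosphate receptor (distance 0.0646), Zfand2a, a heat- and arsenite-inducible gene (0.106), and Gstm6, a glutathione transferase whose reads can be shared with close copies (0.121). For Rela they were the translation factor genes Eif4a1 (0.0365) and Eif6 (0.0417) and the nucleolar gene Esf1 (0.0426). The Rela profile of a high WT 2 was shared by Eif4a1, at 421, 581 and 383 CPM in the wild-type libraries. This follows from the choice of Eif4a1 by its profile over the same libraries.

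Other features of the libraries are set beside these values. Of all genes tested, 9.8% were called higher and 10.6% lower, so 1 call among 7 or 8 markers is not read as a result. The summed level of 12 immediate-early genes ran from 413 to 920 CPM in wild-type and from 2245 to 2908 CPM in knockout libraries, and 10 of the 12 rose. Mitochondrially encoded transcripts made up 6.52% to 8.34% of wild-type and 10.1% to 11.7% of knockout counts, and the 4 hemoglobin genes, all of which rose, summed to 286 to 484 and 1065 to 1419 CPM. The summed level of 8 Kupffer cell markers was 133 to 271 CPM in wild-type and 85.8 to 92.7 CPM in knockout libraries, with 4 of 8 lower. For 7 monocyte and macrophage markers it was 47.4 to 108 against 68.8 to 77.6 CPM, with 1 of 7 lower, and for 7 neutrophil markers 19.4 to 130 against 86.3 to 119 CPM, with none called. Lymphocyte markers were low in both groups: 8 T and NK cell markers summed to 1.33 to 1.82 against 3.97 to 4.73 CPM, with 2 of 5 tested higher, and 7 B and plasma cell markers to 0.717 to 1.68 against 7.61 to 11.6 CPM, with 2 of 3 tested higher. Sums for 8 sinusoidal endothelial markers overlapped between the groups (167 to 204 against 135 to 194 CPM, 1 of 8 higher and 1 lower), as did those of 7 stellate cell markers (167 to 254 against 110 to 242 CPM, 1 of 7 lower), while 6 biliary markers ran from 80.5 to 109 and from 122 to 312 CPM, with 2 of 5 tested higher. No listed marker was at 0 in every library. The part of these differences in the levels of the NF-kappa-B genes was not tested.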

How the data were processed

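Liver poly(A) RNA of 3 wild-type and 3 Entpd8 knockout samples was sequenced, and samples were grouped by their titles. Per the submitters' processing notes, the tools include Trim Galore, STAR and Salmon and the build is GRCm38, with versions, order, settings and annotation not given in the sources used here. Expected counts (estimated counts per gene) were deposited by the authors, unscaled. Symbols matched 45143 of 45706 genes. Positions and exon lengths (union of basic-set exons) came from GENCODE M21 (GRCm38), promoters from RefSeq (GRCm38.p6).

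Counts were rounded, filtered with filterByExpr (14069 genes left), scaled by TMM and tested for genotype alone with edgeR 4.0.16 in R 4.3.3 (robust quasi-likelihood test, two-sided, Benjamini-Hochberg over all genes tested, threshold 0.05). Standard errors divide the log2 fold change by the root of F. Members and lists were chosen with earlier results of these data known. Named were Entpd8, all members, up to 5 genes per list ranked by p (mean log2 CPM 0 or more), genes too low to test, and the 3 genes nearest in profile to Nfkbia and to Rela; further names are marked in the text. On simulated counts of 13690 genes the fit called 87.0% of genes changed 3-fold, 9.18% of those changed 1.5-fold and 13 of 13492 unchanged ones. In the simulation 100 genes were set to rise at each fold, a far smaller share than was called in the data. These shares therefore need not hold for the data. Alternatives were 3 other scalings (RLE, upper quartile, library totals), 2 other filters, no robust weights, DESeq2 1.42.0, limma voom (limma 3.58.1), a fold minimum of 1.5, a threshold of 0.1, a replicate block, a length-trend correction, removal of mitochondrial and hemoglobin genes, and leaving out each library. Figures used matplotlib 3.10.9.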

Additional observations from a re-analysis of the deposited data

How the results depend on the processing

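With each library left out in turn, the number of members called ran from 3 to 7, that of the other pathway genes from 12 (without KO 1) to 31 against 33, and that of all genes from 603 (without KO 1) to 3080 against 2871. Pathway genes called fell to 20 without WT 1 and to 18 without KO 2 or KO 3. Against a fold minimum of 1.5, 3 members, 9 pathway genes and 323 of all 14069 genes tested passed. The labels do not say whether same-numbered libraries belong together. Deviations from the group means of same-numbered libraries correlated at -0.0762, 0.0126 and -0.0853. With 3 libraries per group these correlations cannot settle it. With the replicate block, 3 members, 19 pathway genes and 1468 of all 14069 genes tested passed. The mean Nfkbia to Rela difference stayed at 1.40, by construction. The members lost both with the block (adjusted p = 0.0953 and 0.0967) and with the fold minimum were Relb and Nfkb1. No alternative reversed the direction of a member or of any pathway gene named by rule. The genes nearest in profile to Nfkbia and to Rela were not checked for this. Scaling, filtering, tool, length-trend and gene-removal alternatives left 5 members called, except library totals alone (4). Calls over all genes in these settings ran from 2606 of 14069 (library totals alone) to 3583 of 15372 (DESeq2). Without the low-count filter they were 2850 of 22291. The Nfkbia to Rela difference ran from 1.27 to 1.49 and that of the alternative to classical subunits from 0.12 to 0.37 on the log2 scale when each library was left out, and the latter was 0.33 on counts per length. Counts ran from 87 to 185 for Nfkbie and from 110 to 432 for Relb, while the largest standard errors among the members were those of Tnfaip3 (0.38), Bcl3 (0.33) and Nfkbie (0.28).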
